A study of Mus musculus with 18 samples.

Results

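Collagen chain genes were followed in the gastrocnemius, a calf muscle, of 9 mice in which 1 leg received tunicamycin and the other saline. Every gene whose symbol has the form of a collagen chain name (Col, a type number, a, and a chain number) and that was measured by a probeset assigned to that gene alone was taken, without regard to its values. This gave 44 of the 22180 genes measured, from 47 of 41345 probesets. They comprised 11 fibrillar, 6 basement membrane, 6 beaded filament, 9 FACIT (fibril-associated), 3 network, 2 multiplexin and 4 transmembrane chain genes, 1 anchoring fibril gene (Col7a1) and 2 others (Col26a1 and Col28a1).

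The tunicamycin legs were injected into the muscle with 30 µg of the drug in 30 µL, and the saline legs of the same animals with saline. All muscles were collected 24 h later, and each was hybridised to 1 Affymetrix MoGene-2_0-st array, which gave 9 tunicamycin and 9 saline arrays. Per the labels all animals were wild-type females on a mixed C57Bl6/J-SV129 background. Males of C57BL/6J are named in the animal section of the study, so the strain remains unsettled. The sex is taken up with the Xist signal below. The labels give no age. The animal section has the C57BL/6J males bought at 8 weeks of age and kept for 2 weeks before the experiments, and whether this holds for these animals is not stated. Because the saline legs belonged to treated animals, any effect that the drug had through the circulation is shared by both legs. Values are log2 signals, so a difference of 1 is a doubling, and signals of different genes are not compared because probes differ in brightness.

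Collagens are extracellular proteins built of 3 chains wound into a triple helix. The chains enter the endoplasmic reticulum (ER), where prolines and lysines are hydroxylated and chaperones guide the folding, and the folded procollagen is exported, trimmed and crosslinked outside the cell. In skeletal muscle, fibrillar collagens of types I, III and V form the connective tissue around fibres and bundles, which is made mostly by fibroblasts and fibro-adipogenic progenitors, and type IV collagen forms the sheet of the basement membrane that wraps each fibre and capillary. Tunicamycin blocks N-linked glycosylation in the ER and thereby causes ER stress.

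The medians of the 18 arrays lay between 4.99 and 5.07. The muscle label was borne out by 10 muscle fibre markers, all above the background guide described below, and the 12 ER stress genes examined were all called higher in the tunicamycin legs. Mouse 9 stood apart in both legs. Its signal for Xist, the RNA of the inactive X chromosome, was 4.90 in the tunicamycin leg and 4.79 in the saline leg. In the arrays of the other mice it was 9.22 to 9.52. These values go with the female label for the other mice and against it for mouse 9. Mouse 9 was also the only mouse whose macrophage marker list had a mean log2 change below 0 (-0.33). Its fibroblast list had the lowest mean change (-0.32, with mouse 3 at -0.28). Results that mouse 9 decides are given with and without it.

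RefSeq promoter windows of build GRCm38.p6, each from 250 bases before to 50 bases after the annotated start, were matched for 35 of the 44 genes (38 windows). Shown here are those of Col3a1 and Col1a2, chains of the most abundant fibrils of muscle connective tissue. The facing pair of Col4a1 and Col4a2 is also shown, although Col4a1 was not called below. Col5a2 and Col1a1 were among the genes without a window, and the windows of Col18a1 are not printed. Capitals mark 3 motifs found on either strand: the TATA box letters TATAAA, the CCAAT box and the GC box letters GGGCGG. A box on the opposite strand appears as its reverse complement.
Col3a1, chr1:45311288-45311587, plus strand: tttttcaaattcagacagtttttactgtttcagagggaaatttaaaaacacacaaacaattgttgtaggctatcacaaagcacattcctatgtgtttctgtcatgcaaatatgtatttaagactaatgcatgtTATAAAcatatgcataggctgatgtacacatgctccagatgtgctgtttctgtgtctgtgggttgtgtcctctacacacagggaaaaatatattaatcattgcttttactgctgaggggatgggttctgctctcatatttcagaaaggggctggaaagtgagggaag
Col1a2, chr6:4505368-4505667, plus strand: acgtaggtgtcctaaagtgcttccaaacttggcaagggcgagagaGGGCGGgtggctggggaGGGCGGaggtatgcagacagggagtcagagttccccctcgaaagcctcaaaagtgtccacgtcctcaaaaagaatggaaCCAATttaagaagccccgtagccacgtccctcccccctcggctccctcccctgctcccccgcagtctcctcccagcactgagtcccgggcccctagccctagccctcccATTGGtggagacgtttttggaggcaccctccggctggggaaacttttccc
Col4a1, chr8:11312777-11313076, minus strand: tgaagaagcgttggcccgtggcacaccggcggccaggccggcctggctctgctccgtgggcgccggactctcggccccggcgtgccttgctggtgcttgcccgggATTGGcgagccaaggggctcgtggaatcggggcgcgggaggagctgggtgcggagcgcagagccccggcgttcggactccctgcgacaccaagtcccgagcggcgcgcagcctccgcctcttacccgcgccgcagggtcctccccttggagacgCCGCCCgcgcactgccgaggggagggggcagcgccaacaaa
Col4a2, chr8:11312555-11312854, plus strand: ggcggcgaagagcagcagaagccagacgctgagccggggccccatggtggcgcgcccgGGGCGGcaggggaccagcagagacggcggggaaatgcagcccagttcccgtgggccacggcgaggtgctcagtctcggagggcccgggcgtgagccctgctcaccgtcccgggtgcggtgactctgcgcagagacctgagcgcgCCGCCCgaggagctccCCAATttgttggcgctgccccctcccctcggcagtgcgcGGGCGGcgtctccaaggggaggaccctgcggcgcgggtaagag

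The Col3a1 window held TATAAA, 117 bases before the start, and neither CCAAT nor GGGCGG, whereas Col1a2, Col4a1 and Col4a2 held both CCAAT and GGGCGG and no TATAAA. The windows of Col4a1 and Col4a2, read from opposite strands, shared 78 bases. Searched on both strands, GGGCGG occurred in 60.5% of the 38 collagen windows, against 35.7% of the 32851 windows of all genes, and the collagen windows were richer in G and C (median 59.8%, against 52.7%). CCAAT occurred in 34.2% of collagen windows and 37.4% of all, TATAAA in 13.2% and 13.6%, and CCACG in 36.8% and 32.8%. TGACGTGG was in 0 collagen windows, against 0.676% of all, and CCAAT followed after 9 bases by CCACG, the letters of the ER stress response element, was in 0, against 0.119%. At shares this small, finding 0 in 38 windows does not show that collagen genes lack these letters. All of these are counts of letters in a short window and were not tested.

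In the tunicamycin legs, 5 collagen genes rose and 0 fell. The risers were 3 fibrillar chains, Col3a1, Col5a2 and Col1a2, the basement membrane chain Col4a2 and the multiplexin Col18a1. Of the 44 genes, 11.4% were thus called higher, against 4.72% of all genes (and 6.15% of all genes called lower), at a Benjamini-Hochberg adjusted p under 0.05 over all 22180 genes (limma with the mouse as a block). In bulk muscle, a change in the number of collagen-making cells cannot be told apart from a change in the RNA of each cell.

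**Figure D1:**
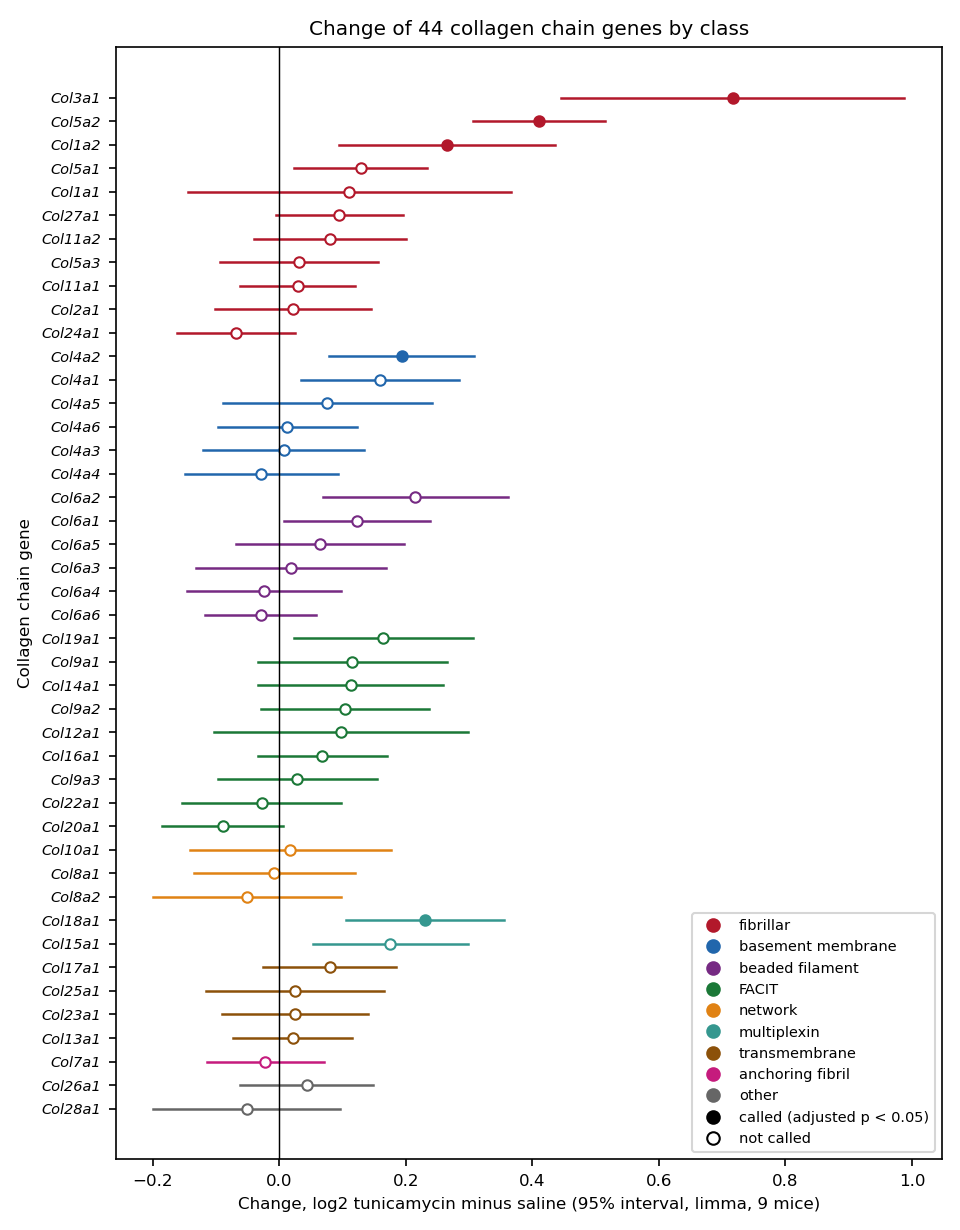
Log2 change (tunicamycin minus saline) of the 44 collagen genes, by class and then by size. Points are means over 9 mice, bars are 95% intervals from limma, and filled points are the 5 genes called at an adjusted p under 0.05, all higher.

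Over all 44 collagen genes, the 5 called ones included, 34 changes were above 0 and 10 below (77.3% positive, against 52.7% of all genes). Single mice differed. The collagen genes above 0 numbered 21 in mouse 6 (against 46.6% of all genes), 22 in mouse 3 (50.2%), 28 in mouse 9 (53.7%) and 35 in mouse 1 (50.8%), the lowest and highest counts being those of mice 6 and 1. The median change was 0.05, against 0.01 over all genes. At an unadjusted p under 0.05, 11 collagen genes passed in limma, all of them higher. Such a p was common among all genes. Col6a1, the last of the 11 (limma unadjusted p = 0.0380), ranked 5084 of 22180 genes by p. The count alone, without regard to direction, therefore does not set the collagen genes apart. The share of all genes that were higher at this p was not counted. Changes of the collagen genes ran from -0.09 (Col20a1, a FACIT) to 0.72 (Col3a1). The ranges of the tunicamycin and saline legs overlapped for all 44, while 0.406% of all genes had every tunicamycin leg above every saline leg and 0.158% every tunicamycin leg below.

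Calls were also read against signal level. The 95th percentile of 1088 olfactory receptor genes, which muscle is not known to express, was taken as a guide to background and lay at 5.03. Of the collagen genes, 37 had a mean above it in at least 1 group, 13.5% of them called higher, and 7 at or below it. Over all genes above this guide, 6.86% were called higher and 9.69% lower. All 5 risers were among the 28 collagen genes brighter than the median gene, with Col18a1 barely above that median, while 7.26% of all genes brighter than it were called higher and 11.1% lower, and 0 of the 16 dimmer collagen genes were called, where 2.18% of all dimmer genes were called higher and 1.15% lower.

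Col3a1 encodes the only chain of type III collagen, which forms fine fibrils together with type I. Its signal was 6.92, 7.85 and 8.01 (lowest, median and highest) in the tunicamycin legs, against 6.50, 6.94 and 7.28 in the saline legs. The tunicamycin leg was the higher one in 8 of 9 mice, by 0.43 to 1.08, and the lower one in mouse 9 alone (change -0.35). The mean change was 0.72 ± 0.13 (SE, n = 9 mice, 1.64-fold, limma adjusted p = 0.00473). An exact two-sided sign-flip test over the 9 mice gave an unadjusted p of 0.00781. Leaving out each mouse in turn kept the call, with changes from 0.67 to 0.85, the highest without mouse 9.

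Col5a2 encodes the second chain of type V collagen, which sits inside type I fibrils and limits their width. It was the only collagen gene higher in the tunicamycin leg of every mouse. Its signal was 6.17, 6.51 and 6.78 in the tunicamycin legs, against 5.94, 6.03 and 6.28 in the saline legs, and only the tunicamycin leg of mouse 9 fell within the range of the saline legs. The mean change was 0.41 ± 0.048 (SE, n = 9; 1.33-fold; limma adjusted p = 6.27e-04), and single mice lay between 0.19 and 0.54. The unadjusted sign-flip p was 0.00391, which is the smallest that 9 mice allow. The change was called without any 1 mouse (0.39 to 0.44).

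Col3a1 and Col5a2 are neighbours on chromosome 1 in the RefSeq order of genes. Of the 8 pairs of neighbouring collagen genes, theirs was the only one with both members called. In the pair Col4a1 and Col4a2, on chromosome 8, 1 member was called, and in the other 6 pairs 0, among them Col6a2 and Col6a1 on chromosome 10 (0.21 and 0.12) and Col4a4 and Col4a3 on chromosome 1 (-0.03 and 0.01).

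**Figure D2:**
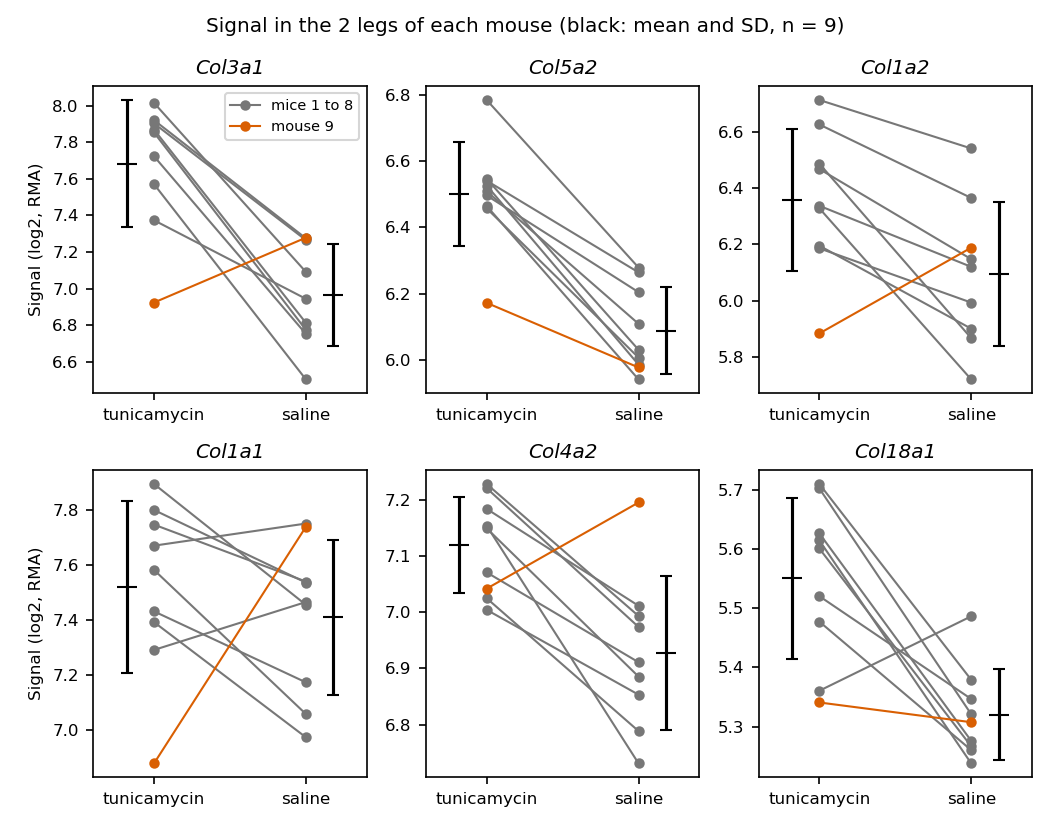
Log2 signal in the tunicamycin leg (left) and the saline leg (right) of each mouse for the 5 collagen genes called higher and Col1a1; lines join the legs of a mouse and black bars are means with SD (n = 9). Mouse 9, in orange, runs against the other mice in Col3a1, Col1a2 and Col4a2, and has a change of -0.86 in Col1a1.

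Type I collagen, the main fibril protein, is a trimer of Col1a1 and Col1a2 chains. Col1a2 signal was 5.88, 6.34 and 6.71 in the tunicamycin legs and 5.72, 6.12 and 6.54 in the saline legs, so that the groups overlapped over most of their range and the change lay within mice. The change was 0.27 ± 0.079 (SE, n = 9; limma adjusted p = 0.0483), higher in 8 of 9 mice, and stood close to the threshold. Without mouse 1, 2, 3, 4, 5, 6, 7 or 8 the adjusted p was 0.0684 to 0.118, and without mouse 9 it was 0.00433 with a change of 0.34. The 2 probesets of Col1a2 gave similar changes, 0.25 and 0.28, although the second had a mean signal of 4.94, below the background guide.

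Col1a1 was not called. Its signal was 6.88, 7.58 and 7.90 in the tunicamycin legs, against 6.97, 7.47 and 7.75 in the saline legs, and its change of 0.11 ± 0.12 (SE, n = 9; limma adjusted p = 0.613) came with a 95% interval from -0.14 to 0.37. The tunicamycin leg was higher in 6 mice. Mouse 9 had a change of -0.86, while the other mice ran from -0.17 to 0.53. Without mouse 9 the change was 0.23, still not called (limma adjusted p = 0.0688). The change of Col1a1 minus that of its partner Col1a2 averaged -0.15 ± 0.25 (SD, 9 mice) and was above 0 in 2 of 9 mice.

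Type V chains differed more clearly from each other. Col5a1, the chain present in nearly all type V trimers, had 5.88, 5.91 and 6.22 in the tunicamycin legs, against 5.62, 5.96 and 6.06 in the saline legs, a change of 0.13 ± 0.049 (SE, n = 9; limma adjusted p = 0.111). Its median was lower in the tunicamycin legs although the tunicamycin leg was the higher one in 7 of 9 mice. The 2 probesets of Col5a1 differed: the brighter changed by 0.19, higher in 9 of 9 mice and called in the fit over probesets (limma adjusted p = 0.0399, where 4.48% of all probesets were called in either direction), and the dimmer by 0.06. Col5a3, the third type V chain, changed by 0.03 ± 0.058 (limma adjusted p = 0.791). The Col5a2 change was larger than that of Col5a3 in 9 of 9 mice (mean difference 0.38 ± 0.19, SD) and larger than that of Col5a1 in 8 of 9 (Col5a1 minus Col5a2 -0.28 ± 0.21).

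The other fibrillar genes were not called. Col27a1 changed by 0.10 and Col11a2 by 0.08, and Col2a1 and Col11a1, best known from cartilage, by 0.02 and 0.03. Col24a1 was the exception in direction, at -0.07, lower in 8 of 9 mice and higher only in mouse 9 (limma adjusted p = 0.351). Over the 11 fibrillar genes the median change was 0.10, with 3 called higher and 0 lower.

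Type IV collagen of muscle is mostly a trimer of 2 Col4a1 chains and 1 Col4a2 chain, whose genes lie head to head. Col4a2 signal was 7.00, 7.15 and 7.23 in the tunicamycin legs, against 6.73, 6.91 and 7.20 in the saline legs. The highest saline leg was that of mouse 9. The change was 0.19 ± 0.053 (SE, n = 9; limma adjusted p = 0.0353; exact sign-flip p = 0.0117), higher in 8 of 9 mice, but without mouse 1, 2, 3, 4, 5, 6, 7 or 8 the adjusted p was 0.0638 to 0.0793, and without mouse 9 it was 0.00500.

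Col4a1 moved similarly without passing the test. Its signal was 7.42, 7.58 and 7.73 in the tunicamycin legs, against 7.28, 7.36 and 7.66 in the saline legs, a change of 0.16 ± 0.058 (SE, n = 9; limma adjusted p = 0.100), higher in the same 8 mice. The change of Col4a1 minus that of Col4a2 was -0.03 ± 0.11 (SD, 9 mice), within -0.18 and 0.15 in every mouse. Without mouse 9 Col4a1 was called as well (0.21, limma adjusted p = 0.0146).

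The remaining type IV chains build the collagen networks of kidney, lung and smooth muscle, and lay near the background guide here. Col4a3, Col4a4, Col4a5 and Col4a6 changed by 0.01, -0.03, 0.08 and 0.01, with 3 to 5 mice higher for each. Of the 6 basement membrane genes 1 was called higher, and their median change was 0.04.

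The multiplexins are proteoglycans of basement membranes. Col18a1, the source of endostatin, had 5.34, 5.60 and 5.71 in the tunicamycin legs, against 5.24, 5.31 and 5.49 in the saline legs, and 6 of the 9 tunicamycin legs lay above the whole saline range. The change was 0.23 ± 0.058 (SE, n = 9; limma adjusted p = 0.0243; exact sign-flip p = 0.0117), and mouse 7 was the exception at -0.13. Without mouse 3, 4 or 5 the adjusted p was 0.0628 to 0.0651. Col15a1, a link between basement membrane and fibrils, had 5.80, 6.00 and 6.33 in the tunicamycin legs, against 5.67, 5.82 and 6.03 in the saline legs. Its change of 0.18 ± 0.057 (limma adjusted p = 0.0664) was positive in 8 of 9 mice and was called without mouse 9 (0.21, limma adjusted p = 0.0216).

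Type VI collagen makes beaded filaments that tie the basement membrane of the fibre to the surrounding matrix, and mutations of its chains cause muscle disease. Col6a2 came nearest to a call among the collagen genes that were not called: 6.84, 7.03 and 7.19 in the tunicamycin legs, against 6.63, 6.79 and 7.04 in the saline legs, a change of 0.21 ± 0.068 (SE, n = 9; limma adjusted p = 0.0597), higher in 8 of 9 mice and called without mouse 9 (0.27, limma adjusted p = 0.0119). Its partner Col6a1 changed by 0.12 (limma adjusted p = 0.166), the mean of a brighter probeset at 0.19, higher in 8 of 9 mice, and one below the background guide at 0.06. Col6a3 changed by 0.02 (limma adjusted p = 0.906). The change of Col6a2 exceeded that of Col6a3 in 8 of 9 mice, by 0.20 ± 0.24 (SD). A further probeset that carries Col6a1 together with other symbols, and so was left out, had a change of -0.02 (limma adjusted p = 0.855). Col6a4, Col6a5 and Col6a6, minor chains, changed by -0.02, 0.06 and -0.03.

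FACIT collagens decorate fibrils, and 0 of 9 were called although their median change was 0.10. Col9a2, a cartilage chain, changed by 0.10 ± 0.061 (limma adjusted p = 0.314). Col19a1 changed by 0.16 ± 0.066 (limma adjusted p = 0.131), with 0.66 in mouse 2 and under 0.25 in every other mouse. Col12a1, found at fibril surfaces of tendon and muscle sheath, had the widest spread of the class, from -0.39 in mouse 4 to 0.61 in mouse 3. Col22a1, a protein of the muscle and tendon junction, changed by -0.03, and Col14a1 by 0.11.

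Col20a1 had the lowest change of all collagen genes. Its signal was 5.93, 6.08 and 6.24 in the tunicamycin legs, against 6.13, 6.20 and 6.30 in the saline legs, and 8 of 9 mice were lower in the tunicamycin leg. The change was -0.09 ± 0.044 (SE, n = 9; limma adjusted p = 0.223).

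The network, transmembrane and remaining genes gave 0 calls. Col8a1 and Col8a2, of vessel wall and cornea, changed by -0.01 and -0.05, and Col10a1, of growth plate cartilage, by 0.02. The signals of Col8a2 and Col10a1 lay below the background guide. The network median was -0.01. The transmembrane chains Col13a1, Col17a1, Col23a1 and Col25a1 lay between 0.02 and 0.08, the anchoring fibril chain Col7a1 was at -0.02, and Col26a1 and Col28a1 were at 0.04 and -0.05.

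**Figure D3:**
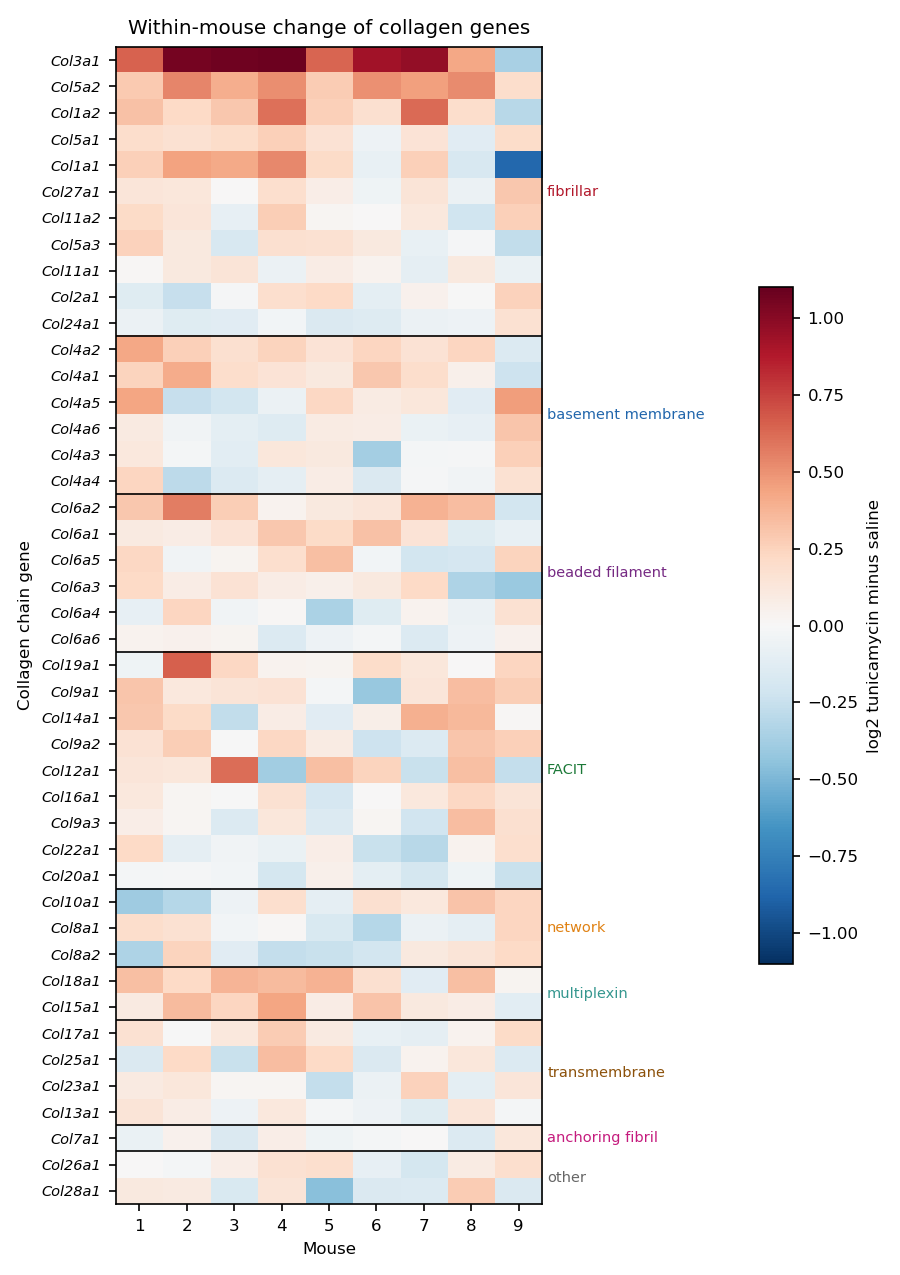
Log2 change (tunicamycin minus saline) of each collagen gene in each mouse, genes in rows by class and mice in columns; red is higher and blue lower in the tunicamycin leg. Col3a1 and Col5a2 are red in mice 1 to 8, and the fibrillar block changes in mouse 9, where Col1a1, Col3a1 and Col1a2 are blue.

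Between mice, all 5 called genes were higher in the tunicamycin legs of mice 1, 2, 3, 4, 5, 6 and 8, 4 of them in mouse 7 and 2 in mouse 9 (Col5a2 at 0.19 and Col18a1 at 0.03). In mouse 9, 15 of the 28 collagen genes brighter than the median gene were above 0, against 40.7% of all brighter genes, and 13 of the 16 dimmer ones, against 66.7% of all dimmer genes. The mean change of the 37 collagen genes above the background guide was 0.01 in this mouse. The lowest changes there were those of Col1a1, Col6a3, Col3a1 and Col1a2 (-0.86, -0.41, -0.35 and -0.31), while Col4a5 and Col4a6 stood at 0.46 and 0.30. The mean change of the ER stress genes was 0.61 in mouse 9 and 0.62 in mouse 1, in which all 5 called collagen genes were higher, and 1.06 to 1.62 in the other mice. The part of these differences in the mouse 9 result was not tested.

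Class means were set side by side within each mouse. The fibrillar mean exceeded the basement membrane mean in 7 of 9 mice (difference 0.10 ± 0.15, SD), the FACIT mean in 7 of 9 (0.10 ± 0.16) and the network mean in 7 of 9 (0.18 ± 0.22). Each of these was smaller than its spread over the 9 mice, which rests in part on mouse 9, where all 3 were below 0. Without mouse 9, a setting chosen after seeing the data, the differences were 0.13 ± 0.12, 0.13 ± 0.15 and 0.24 ± 0.14 (SD), each above 0 in 7 of 8 mice. The fibrillar mean itself was above 0 in 8 of 9 mice, the network mean in 4. Col3a1, with the largest change (0.72), raises the fibrillar mean. By median change the fibrillar genes (0.095) did not exceed the FACIT genes (0.097). The medians were 0.044 for basement membrane and -0.0075 for network genes. Of the 3 network genes, 1 lay above the background guide. These class values are descriptions of a few genes each, and differences between classes were not tested.

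**Figure D4:**
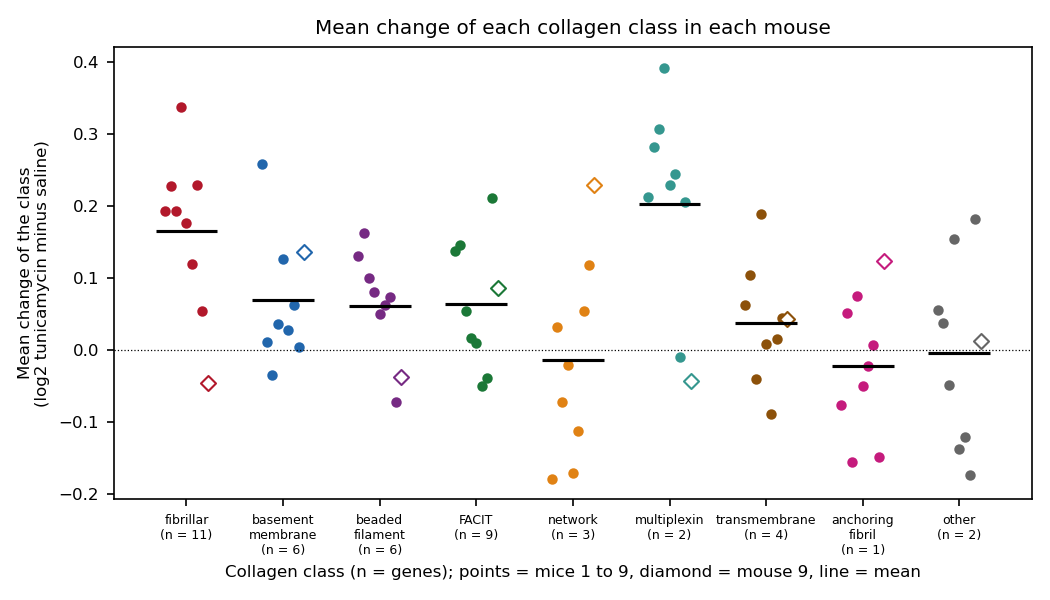
Mean log2 change (tunicamycin minus saline) of each collagen class in each of 9 mice, with the number of genes in each class under its name; points are mice 1 to 9 from left to right, the open diamond is mouse 9 and lines are means over mice. The fibrillar class was above 0 in 8 of 9 mice, and the network class in 4.

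Genes that process collagen were described from lists ordered by step, which were written with earlier results of these data known. Their counts stand beside 4.72% of all genes called higher and 6.15% called lower. In the ER, 2 of 13 measured genes of prolyl and lysyl hydroxylation rose and 0 fell. P4hb, the shared subunit of prolyl 4-hydroxylase and a disulfide isomerase, averaged 9.79 ± 0.16 in the tunicamycin legs and 9.25 ± 0.096 in the saline legs (SD, n = 9 each; change 0.54, limma adjusted p = 9.74e-04). P3h1, a prolyl 3-hydroxylase, changed by 0.31 (limma adjusted p = 0.0302), a call lost without mouse 3, 4, 6, 7 or 8 (0.0627 to 0.0784). The catalytic subunits P4ha1, P4ha2 and P4ha3 were not called (0.19, -0.01 and 0.11), nor were Plod1 and Plod2, the lysyl hydroxylases measured (-0.05 and -0.10).

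Procollagen folding and export held the largest changes of these lists, with 5 of 10 genes higher and 0 lower. Because its members were chosen with earlier results known, the rank of this list is not a test. Hspa5 (BiP), a general ER chaperone, changed by 1.36 and Pdia3, a disulfide isomerase, by 1.28. Serpinh1 (HSP47), the chaperone specific to collagen, averaged 7.87 ± 0.34 in the tunicamycin legs and 6.88 ± 0.12 in the saline legs (SD, n = 9 each; change 0.99 ± 0.12, SE; limma adjusted p = 5.90e-04). Sec24d, a cargo adaptor of the export coat, changed by 0.96 and Ppib, a prolyl isomerase, by 0.89, and all 5 were higher in 9 of 9 mice. The export factors Mia3 (TANGO1) and Sec23a and the ubiquitin ligase genes Klhl12 and Cul3 were not called (0.04, 0.04, -0.10 and -0.11). Hspa5 is also one of the ER stress genes counted above.

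Outside the cell, 4 of 11 genes of propeptide cleavage and crosslinking rose and 0 fell. They were the crosslinking oxidases Lox (0.36, limma adjusted p = 0.0102), Loxl1 (0.44, limma adjusted p = 0.0105) and Loxl4 (0.20, limma adjusted p = 0.0400), and Pcolce, which enhances cleavage of the C-terminal propeptide (0.21, limma adjusted p = 0.0407). The call was lost for Loxl4 without mouse 1, 2, 3, 4, 5, 7 or 8 (limma adjusted p 0.0548 to 0.0975) and for Pcolce without any of mice 1 to 8 (0.0604 to 0.101). The protease itself, Bmp1, was at -0.10 and not called. Among 7 collagen-cleaving proteases, Mmp8 (0.53, limma adjusted p = 0.0341) and Mmp9 (0.42, limma adjusted p = 0.0447) rose. Without any 1 of mice 2 to 8 neither was called (limma adjusted p 0.0613 to 0.0883 for Mmp8 and 0.0655 to 0.108 for Mmp9). Both are known from neutrophils. Of 7 neutrophil markers, 4 were called higher, Mmp9 again among them (57.1%, against 4.72% of all genes). Only 3 of the 7 had a mean above the background guide. The called S100a8 (means 4.37 in the tunicamycin and 4.03 in the saline legs) and Retnlg (4.04 and 3.49) lay below it. The part of neutrophils was not tested.

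Among 9 collagen receptors and uptake genes, 1 rose and 1 fell. Ddr2, the receptor tyrosine kinase for fibrillar collagen, changed by 0.41 (limma adjusted p = 0.00587), and Itga11, the collagen-binding integrin chain of fibroblasts, by -0.37 (limma adjusted p = 0.0204, and 0.0537 without mouse 3). Of 10 genes of the TGF-beta pathway, a main inducer of fibrillar collagen, the ligand Tgfb1 rose (0.35, limma adjusted p = 0.0462), while Smad7, an inhibitor and target of the pathway (-0.34, limma adjusted p = 0.00884), and the ligand Tgfb3 (-0.33, limma adjusted p = 0.0136) fell. The Tgfb1 call was lost without any 1 of mice 1 to 8 (limma adjusted p 0.0516 to 0.110).

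**Figure D5:**
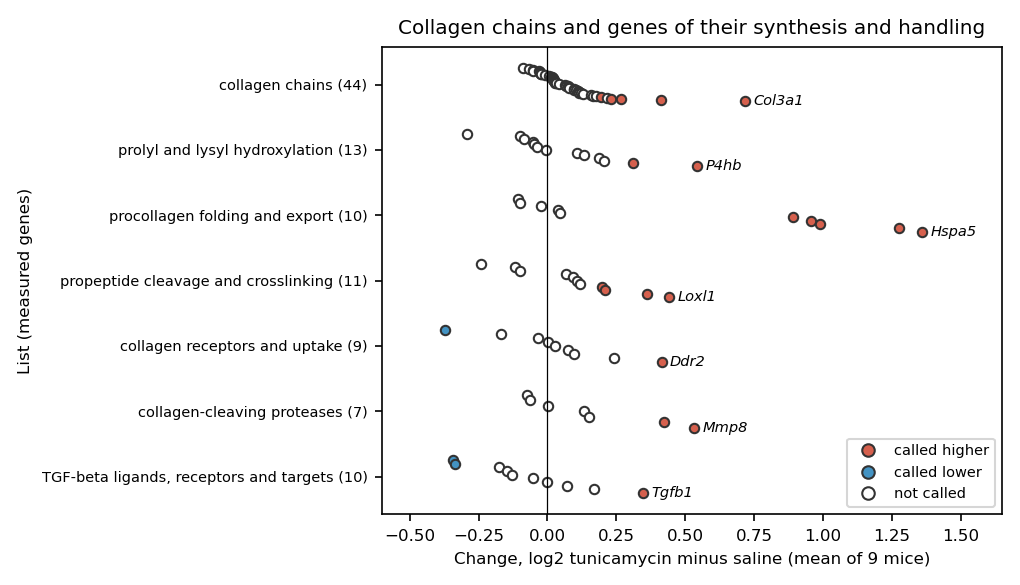
Mean log2 change (tunicamycin minus saline, 9 mice) of the collagen genes and of genes acting in their synthesis and handling, 1 row a list with its number of measured genes; red points were called higher, blue lower and white not called. The gene with the highest change in each list is named, from Tgfb1 at 0.35 to Hspa5 at 1.36.

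Markers of cells that make collagen moved in both directions. Of 10 fibroblast and fibro-adipogenic progenitor markers measured, Cd248 was called higher (0.24) and Smoc2 and Gsn lower (-0.17 and -0.27), and the mean signal of the list ran from 7.99 to 8.42 in the tunicamycin legs, against 8.01 to 8.32 in the saline legs. Of 8 tendon markers 0 were called higher and 4 lower, Fmod, Comp, Tnmd and Kera, with list means from 5.94 to 6.38 in the tunicamycin legs, against 6.03 to 6.48 in the saline legs. Tnmd lay below the background guide (means 4.51 and 4.79). The 2 tendon markers with a positive change, neither called, were Thbs4 (0.37, limma adjusted p = 0.0533) and Egr1 (0.38, limma adjusted p = 0.0816). Of 10 pericyte and smooth muscle markers 4 were lower, and of 10 endothelial markers 0 were called in either direction. Macrophage markers gave 3 higher and 1 lower of 9, with list means from 6.70 to 7.53 in the tunicamycin legs and 6.45 to 7.16 in the saline legs. The part of these cell types in the collagen changes was not tested.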

How the data were processed

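Total RNA of both gastrocnemius muscles of 9 mice was measured on arrays. Log2 signals per probeset had been computed by the authors from the scanned arrays by RMA in Partek (background correction, quantile normalization and summary), and were used as deposited. Groups and mouse numbers came from the labels, and 0 value columns were left unmapped. Of 41345 probesets, 23521 carried 1 gene symbol, 1820 several and 16004 were not listed in the platform annotation. Probesets of 1 symbol were averaged to 22180 genes, without a filter, and all 44 collagen genes were found in RefSeq under the same symbol. Precision is limited by the number of arrays, which also compress large changes.

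A linear model per gene with the mouse as a block was fitted in R 4.3.3 by limma 3.58.1 (eBayes, two-sided), and genes were called at a Benjamini-Hochberg adjusted p under 0.05 over all genes. SEs are the moderated errors of limma. For single genes an exact sign-flip test over the 512 sign patterns of 9 differences was added. The script was tested on simulated data. The labels place both injections in 1 animal. Deviations of the legs of a mouse correlated with a median r of 0.12 (-0.039 to 0.35), against -0.013 between mice, with values below 0 in mice 1 and 9. P-values measure the spread between these mice.

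The members were taken by the form of their symbol. That rule and the lists were chosen with earlier results of these data known. Genes were named where they were called collagen genes, the brightest 2 of a class, partner chains of a called gene or, in each pathway list, up to 4 called genes of smallest p, and others are named as examples chosen after their values were seen. Alternatives were no block, leaving out mice, normalizing or centring again, the brightest probeset, brighter genes only, array weights, a trended and robust prior, and probesets. Promoter windows are RefSeq sequences of GRCm38.p6. Protein sequences were not analysed here.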

Additional observations from a re-analysis of the deposited data

Results flagged for a closer look

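For 21 collagen genes, the tunicamycin signals, the saline signals and the changes of the 9 mice were each searched for a value set far apart, judged by its gap to the nearest mouse, as a share of the whole range (95% critical value of Dixon). Of 63 sets, 7 held such a value, and chance gives about 1 in 20 for a single set. The sets are not independent, because each change is made of the signals of its gene and the same 9 mice enter every set. The count is therefore not a test of an excess.

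Mouse 9 held 5 of them. Its changes (tunicamycin minus saline) were -0.35 in Col3a1 (0.43 to 1.08 in the other mice), -0.31 in Col1a2 (0.17 to 0.62), -0.86 in Col1a1 (-0.17 to 0.53) and -0.15 in Col4a2 (0.15 to 0.42). Its saline leg had a Col4a1 signal of 7.66, against 7.28 to 7.45 in the other saline legs.

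The other 2 were single legs. The tunicamycin leg of mouse 2 had a Col7a1 signal of 6.08, against 5.87 to 5.95 in the other tunicamycin legs, and the saline leg of mouse 5 had a Col28a1 signal of 5.37, against 4.86 to 5.09 in the other saline legs.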

How the results depend on the processing

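Col3a1 and Col5a2 were called higher under all 17 alternatives to the fit on genes and also with probesets. Col18a1 was called under 14 of the 17, Col4a2 under 8, Col6a2 under 7, Col1a2 under 5, Col4a1 and Col15a1 under 4 and Col5a1 under 2, and 0 collagen genes were called lower under any. Leaving out 1 mouse gave 2 to 8 collagen genes called higher, the 8 without mouse 9, and over all genes 563 to 1338 higher and 741 to 1474 lower; fewer samples enter these fits. Leaving out mice 1 and 9 gave 8 collagen genes, array weights 8, centring each array on its median 3, and testing probesets 3 (Col3a1, Col5a1 and Col5a2); the cause was not tested. Without the replicate block, 5 collagen genes were called, with Col6a2 (limma adjusted p = 0.0393) in place of Col1a2 (limma adjusted p = 0.138). The share of lower genes among all called was 56.6%, 69.0% after centring and 49.4% after a further quantile normalization. The basement membrane median became 0.18 among genes brighter than the median gene, since dim chains drop out there. Changes near 0 turned sign. Col6a3 ran from -0.0069 to 0.072 without 1 mouse and was -0.00013 after centring. Col10a1 ran from -0.019 to 0.069 and was -0.0023 after quantile normalization and -0.00087 after centring. Col8a1 ran from -0.038 to 0.031, and Col23a1 from -0.0039 to 0.061 and -0.0021 without mice 1 and 9. The 9 mice and the dim signal of 7 collagen genes limit what could be called.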
